A study of Mus musculus with 4 samples.

Results

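Expression of 10 genes that encode Polycomb, ASXL and cohesin proteins, all of them recurrently mutated or studied as regulators in myeloid leukemia, was followed in mouse acute myeloid leukemia cells with and without a Tet2 deletion. The genes were chosen by name, with earlier results of these data known. They are Suz12 and Eed (Polycomb repressive complex 2, PRC2), Rnf2 and Bcor (PRC1), and Asxl1 and Asxl2 (the Polycomb repressive deubiquitinase, PR-DUB). The others are Stag2, Smc3 and Rad21 (cohesin) and Phf6. All 10 of 10 were found among the 24497 genes of the expression table (spike-in transcripts aside), and all 10 passed the filter of at least 1 TPM (transcript abundance corrected for length and library total) in at least 2 libraries, as did 11837 genes in all. The cells are leukemic cells carrying NRAS and AE9a (AML1-ETO9a, a truncated leukemia fusion protein), made from hematopoietic stem cells of mouse bone marrow. One group, WT, came from wild-type mice, and the other, called knockout-labelled here, from Tet2-/- mice whose Tet2 gene lacked exons 8 to 10. Each group had 2 libraries, made from RNA of cells kept in RPMI medium. To this were added 50 ng/ml of the cytokine SCF, 10 ng/ml of each interleukin (IL-3 as well as IL-6) and, as selection drugs, 1 mg/ml G418 plus 2 µg/ml puromycin, so both groups share the oncogenes, the cytokines and the drug selection. The labels do not say whether the 2 libraries of a group came from separate mice or separate cultures, so p-values here measure only how far these libraries scatter, and that scatter may be technical.

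PRC2 places methyl groups on a lysine of histone H3, with SUZ12 and EED as core subunits beside the catalytic EZH1 or EZH2. PRC1 attaches ubiquitin to histone H2A through RNF2 (RING1B) or its paralog RING1, and BCOR is a subunit of one of its non-canonical forms. PR-DUB removes that ubiquitin again: its enzyme BAP1 is activated by an ASXL protein. Cohesin is a ring of SMC1A, SMC3 and RAD21, bound by STAG1 or STAG2, that holds sister chromatids together and forms chromatin loops. PHF6 is a zinc finger protein of the nucleus that has been found with the NuRD chromatin remodelling complex. In human myeloid leukemia BCOR, STAG2 and PHF6 mutations occur mostly as losses of function, and ASXL2 mutations are known from leukemias with the AML1-ETO fusion.

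Across the table, the 4 libraries each had 11630 to 11731 genes at 1 TPM or more, and their log2 values correlated across genes with r of 0.992 within each group and 0.979 to 0.982 between groups. The read depth is unknown, since TPM keep none. Tet2 itself read 35.05 and 39.95 TPM in the WT libraries and 53.53 and 52.79 TPM in the knockout-labelled libraries, a log2 change of 0.50 (SE 0.067, adjusted p = 0.0054 by limma). Without knockout-labelled replicate 1 its adjusted p was 0.063 and without replicate 2 it was 0.057. A whole-gene value cannot check a deletion of exons 8 to 10. Myeloid genes were present in all libraries (Ptprc at 182 TPM or more), and T cell markers summed to at most 0.22 TPM per library. A list of 24 genes of granulocyte maturation was also chosen with earlier results of these data known. Of these 24, 23 were lower in the knockout-labelled libraries at an adjusted p under 0.05 by limma. Of all tested genes 11.6% were lower at that threshold. The summed level of the 24 was 50219 and 49610 TPM in WT against 25474 and 25804 TPM. TPM of a library add up to a fixed total, and in bulk RNA fewer cells of a type and less RNA per cell cannot be told apart.

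Of the 10 genes, Phf6, Stag2 and Bcor were higher in the knockout-labelled libraries at an adjusted p under 0.05 by limma, by 25.6%, 17.2% and 11.9% of mean TPM, and none of the 10 was lower. At an unadjusted p under 0.05, 6 were higher and 0 lower, against 27% and 16.2% of all tested genes. Over all tested genes, 30.5% were called (18.9% higher and 11.6% lower), so 3 of 10 is to be read against 18.9%. Both knockout-labelled libraries lay above both WT libraries for 9 of the 10 genes, all except Asxl1, against 42.2% of all tested genes. The median log2 change of the 10 was 0.12, and that of all tested genes 0.04. Together the 10 genes summed to 574.9 and 601.2 TPM in WT and 643.2 and 648.3 TPM in the knockout-labelled libraries. The number of the 10 called higher went to 1 without WT replicate 1 and to 0 without either knockout-labelled replicate, settings in which a group is a single library and far fewer genes were called in all (1015 without knockout-labelled replicate 1 and 1059 without replicate 2, against 3606). The counts also depend on how libraries are scaled, as given further on.

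**Figure D1:**
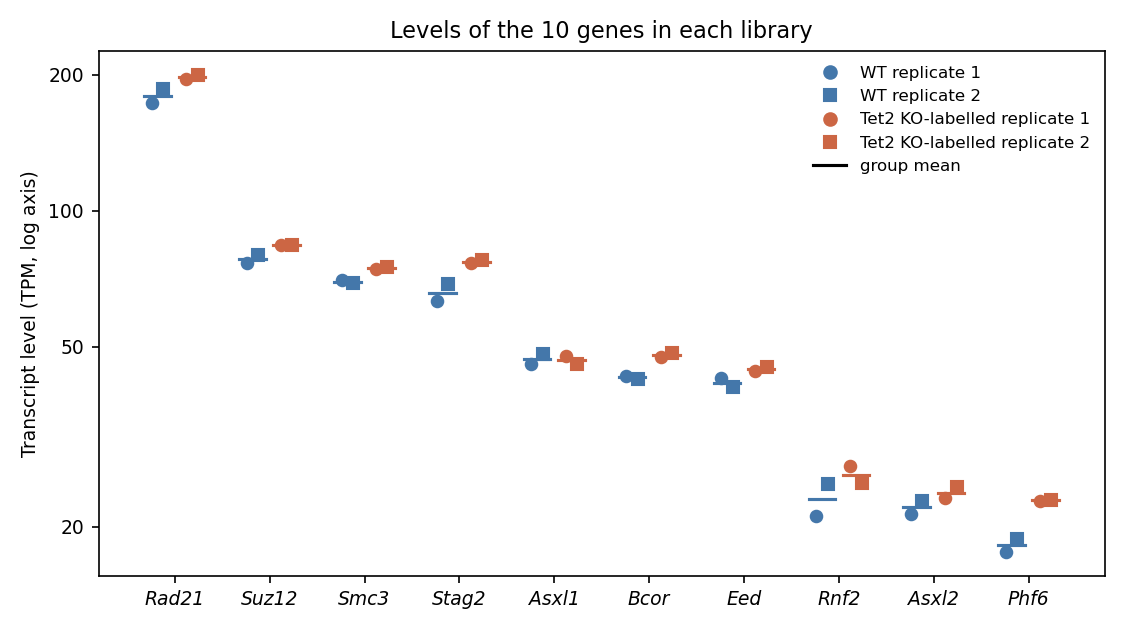
TPM of each of the 10 genes (log axis) in the 2 WT and 2 knockout-labelled libraries, 1 point per library. Rad21 lies above the other genes, and both knockout-labelled points lie above both WT points for every gene except Asxl1.

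TPM are per transcript length, so levels can be set side by side. Rad21 had the highest mean over the 4 libraries, 188.7 TPM, followed by Suz12 at 81.0 TPM. Smc3 (72.2 TPM) and Stag2 (71.5 TPM) came next and their ranges over libraries overlapped. Asxl1 (46.9 TPM), Bcor (45.4 TPM) and Eed (43.2 TPM) formed the next step, with overlapping ranges between neighbours. Rnf2 (24.5 TPM), Asxl2 (23.0 TPM) and Phf6 (20.5 TPM) were lowest, again with overlap between neighbours. Rad21 stood at the percentile 93.8 of mean TPM among tested genes and Phf6 at 47.9, so the gene with the largest change among the 10 was also the one with the lowest level.

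Among the PRC2 core subunits, Suz12 had 76.60 and 79.70 TPM in WT and 83.78 and 83.98 TPM in the knockout-labelled libraries. Its log2 change was 0.10 (SE 0.037, 95% interval 0.01 to 0.19), and its adjusted p by limma was 0.095. Eed, which binds methylated histone H3 and stimulates the enzyme, had 42.63 and 40.68 TPM in WT against 44.29 and 45.03 TPM. The log2 change of Eed was 0.10 (SE 0.043, 95% interval -0.01 to 0.21, adjusted p = 0.140). Both knockout-labelled libraries lay above both WT libraries for either subunit, as they did for 42.2% of all tested genes. Neither subunit passed the adjusted threshold, and the intervals leave room for changes up to about 0.2 on the log2 scale.

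The 2 alternative enzymes of PRC2 both rose. Ezh1 went from 26.93 and 26.55 TPM to 34.84 and 34.09 TPM (log2 change 0.35, adjusted p = 0.0036 by limma), and Ezh2 from 56.31 and 57.86 TPM to 65.90 and 66.58 TPM (0.21, adjusted p = 0.012). Ezh2 stayed the more abundant of the pair in every library. Jarid2, an accessory subunit that helps to recruit PRC2, fell from 35.78 and 38.20 TPM to 31.57 and 32.21 TPM (-0.21, adjusted p = 0.029), while Mtf2, which recruits PRC2 to CpG islands, rose by 0.19 (adjusted p = 0.044). Mtf2 was called in 6 of the 19 alternatives, and its change was 0.10 once libraries were scaled to spike-ins (adjusted p = 0.168) and 0.08 after the correction for GC content and length (adjusted p = 0.187). Ezh2 missed the threshold when scaled to spike-ins, at 0.13 (adjusted p = 0.12). In the PRC2 list 3 of 11 tested genes rose (27.3%) and 1 fell (9.09%), against 18.9% and 11.6% of all tested genes, with a median change of 0.08. With spike-in scaling the count was 1 higher and 1 lower. Without WT replicate 2 and without either knockout-labelled replicate no PRC2 gene was called lower. The number called higher was 2 without WT replicate 1, 0 without knockout-labelled replicate 1 and 1 without knockout-labelled replicate 2.

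Genes that Polycomb complexes are known to silence in many tissues were mostly silent here. Of 25 listed targets, which include Hox and other developmental genes, 22 were under 1 TPM in all 4 libraries and 11 of those were listed at 0. The remaining 3 were tested and 0 were called. Cdkn2a, a cell cycle inhibitor locus repressed by PRC1 and PRC2, had 44.81 and 35.68 TPM in WT and 37.50 and 38.02 TPM in the knockout-labelled libraries (-0.08, 95% interval -0.34 to 0.18, adjusted p = 0.594). Without WT replicate 2, the lower of the WT pair, Cdkn2a changed by -0.24 with an adjusted p of 0.031, and without WT replicate 1 by 0.08. Its neighbour Cdkn2b changed by 0.03 (95% interval -0.19 to 0.25), and Hoxb4 had 1.09 and 1.24 TPM against 0.81 and 0.72 TPM (-0.29, adjusted p = 0.165). These 3 genes were named after their values were seen, as the ones that passed the filter, and the sign of the Cdkn2b change turned under other scalings. Hoxb4 passed the filter only through its WT values, as both knockout-labelled values were under 1 TPM. Its entry into the test is therefore tied to the sign of its change.

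Of the 2 PRC1 genes, Bcor had 43.08 and 42.54 TPM in WT and 47.43 and 48.40 TPM in the knockout-labelled libraries. Bcor rose by 0.16 on the log2 scale (SE 0.038, 95% interval 0.06 to 0.26, adjusted p = 0.031 by limma). Bcor was called in 7 of the 19 alternatives tried. Its adjusted p was above 0.05 when any single library was left out, with values of 0.072 and 0.077 without WT replicates 1 and 2 and of 0.14 and 0.17 without knockout-labelled replicates 1 and 2, with trimmed-mean scaling its change was 0.12 (adjusted p = 0.070), and when scaled to spike-ins it was 0.08 (adjusted p = 0.39). Rnf2, the main ubiquitin ligase of PRC1, had 21.12 and 24.86 TPM in WT and 27.21 and 24.95 TPM in the knockout-labelled libraries. WT replicate 2 and knockout-labelled replicate 2 were nearly level, and the log2 change of Rnf2 was 0.18 (SE 0.088, 95% interval -0.04 to 0.40, adjusted p = 0.183). The SE of Rnf2 was the widest of the 10 genes.

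The partners of BCOR in its PRC1 form did not pass the test. Pcgf1 changed by 0.03 (95% interval -0.11 to 0.17), Kdm2b, which carries the complex to CpG islands, by 0.04 (95% interval -0.07 to 0.16), and the paralog Bcorl1 by -0.11 (95% interval -0.29 to 0.08). The signs for Pcgf1 and Kdm2b turned with spike-in scaling. Ring1, the paralog of Rnf2, read 13.27 and 12.88 TPM in WT and 12.39 and 12.51 TPM in the knockout-labelled libraries (-0.07, adjusted p = 0.406), and Bmi1, a subunit of canonical PRC1 known for stem cell self-renewal, changed by 0.16 (adjusted p = 0.122). A few genes of other PRC1 forms rose: Mga, a DNA-binding subunit, went from 19.59 and 19.92 TPM to 24.13 and 24.94 TPM (0.30, adjusted p = 0.0086), Pcgf5 rose by 0.32 (adjusted p = 0.013) and Cbx2, which reads methylated histone H3, by 0.29 (adjusted p = 0.025). Over the PRC1 list 5 of 27 tested genes rose and 0 fell, with a median change of 0.11. That is 18.5%, near the 18.9% of all tested genes called higher. The number called higher was 1 with spike-in scaling, where Pcgf5 and Cbx2 did not pass, 2 without either WT replicate and 0 without either knockout-labelled replicate.

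To show the sequence in front of these genes, the 250 bases before the annotated start were taken from RefSeq (build GRCm38.p6), where 7 of the 10 genes had an entry: all except Stag2, Rad21 and Phf6. Of these, 3 stretches are printed, 5′ to 3′ on the gene's strand, with every CpG in capitals. They are Bcor, the only gene of the 3 called higher with an entry, Asxl1, the gene with the smallest change, and Suz12, the one with the most CpG. Bcor lies at chrX:12160356-12160605 (minus strand, the upstream window of the outer annotated start), Asxl1 at chr2:153345580-153345829 and Suz12 at chr11:79992856-79993105 (both plus strand). The bases checked just past the start were found in the longest coding transcript of Asxl1 and of Suz12, but not in that of Bcor.
Bcor: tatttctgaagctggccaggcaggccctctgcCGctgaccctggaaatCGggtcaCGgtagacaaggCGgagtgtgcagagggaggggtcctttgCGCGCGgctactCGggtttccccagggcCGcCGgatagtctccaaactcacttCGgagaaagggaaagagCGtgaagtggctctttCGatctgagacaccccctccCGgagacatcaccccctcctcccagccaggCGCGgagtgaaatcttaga
Asxl1: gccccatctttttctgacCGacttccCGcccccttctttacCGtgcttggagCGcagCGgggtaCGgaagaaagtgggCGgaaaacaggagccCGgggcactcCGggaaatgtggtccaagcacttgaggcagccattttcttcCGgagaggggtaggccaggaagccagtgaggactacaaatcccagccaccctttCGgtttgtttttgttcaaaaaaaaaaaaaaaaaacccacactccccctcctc
Suz12: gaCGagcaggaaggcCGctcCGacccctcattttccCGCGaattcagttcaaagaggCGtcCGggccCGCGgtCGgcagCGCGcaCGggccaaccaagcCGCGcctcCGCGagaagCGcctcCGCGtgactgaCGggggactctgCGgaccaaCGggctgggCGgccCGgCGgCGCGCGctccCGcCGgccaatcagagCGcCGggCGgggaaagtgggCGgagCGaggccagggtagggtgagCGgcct
The counts of CpG were 16 for Bcor, 11 for Asxl1 and 37 for Suz12, against a median of 6 over the promoters of 27025 genes in the same table, and Asxl1, the least dense of the 7, still held more CpG than 64.0% of them. Eed held 12, Rnf2 20, Smc3 26 and Asxl2 31. The ETS core CCGGAAG, searched on both strands, was found in Asxl1 and Asxl2 and in 7.05% of all promoters. The E2F motif TTTCCCGC was found in Suz12 (0.929% of all promoters), the YY1 motif AAGATGG in Asxl1 (4.53%), and the CRE motif TGACGTCA in none of the 7 (1.62%). Neither Bcor stretch held any of these 4 motifs.

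In PR-DUB, Asxl1 was the flattest of the 10 genes. It had 45.74 and 48.21 TPM in WT and 47.84 and 45.87 TPM in the knockout-labelled libraries, so the groups overlapped, and the 95% interval of its log2 change ran from -0.12 to 0.11 (adjusted p = 0.964 by limma). The sign of that change depends on the setting: it was above 0 after rescaling without spike-ins and Rn45s, and when WT replicate 2 or knockout-labelled replicate 2 was left out. Asxl2 had 21.40 and 22.85 TPM in WT and 23.11 and 24.48 TPM in the knockout-labelled libraries. Its log2 change was 0.10 (SE 0.057, 95% interval -0.04 to 0.24, adjusted p = 0.234), and it turned below 0 once the trend with GC content and length was removed. The third ASXL gene, Asxl3, was listed at 0 in all 4 libraries. Bap1, the enzyme, changed by 0.02 (95% interval -0.13 to 0.17, adjusted p = 0.806), with the sign turning under other scalings. Ogt, a sugar transferase that associates with PR-DUB, rose from 133.94 and 142.64 TPM to 165.86 and 175.76 TPM (0.30, adjusted p = 0.0087), and Mbd5, a PR-DUB binding protein, rose by 0.37 (adjusted p = 0.025). These were the 2 genes of 10 tested in the PR-DUB list that rose, with 0 lower and a median of 0.06. That share, 20%, is near the 18.9% of all tested genes called higher. The number was 1 with spike-in scaling, 1 without WT replicate 1 and 0 without either knockout-labelled replicate.

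The cohesin genes differed in size of change. Stag2 had 63.04 and 68.68 TPM in WT and 76.77 and 77.61 TPM in the knockout-labelled libraries. Stag2 rose by 0.23 on the log2 scale (SE 0.050, 95% interval 0.10 to 0.35, adjusted p = 0.024 by limma). Stag2 was called in 10 of the 19 alternatives. Leaving out WT replicate 1 gave 0.17 with an adjusted p of 0.053, leaving out knockout-labelled replicate 1 or 2 gave adjusted p of 0.13 and 0.14, and spike-in scaling gave 0.14 with an adjusted p of 0.075. Rad21, the subunit that closes the ring and is cut at anaphase, had 173.38 and 185.81 TPM in WT and 195.71 and 199.94 TPM in the knockout-labelled libraries. The log2 change of Rad21 was 0.14 (SE 0.043, 95% interval 0.03 to 0.25, adjusted p = 0.062), and without WT replicate 2 its adjusted p was 0.028. Smc3 had 70.28 and 69.06 TPM in WT and 74.19 and 75.16 TPM in the knockout-labelled libraries, a log2 change of 0.10 (SE 0.035, 95% interval 0.01 to 0.19, adjusted p = 0.086). Both knockout-labelled libraries lay above both WT libraries for all 3 cohesin genes, as they did for 42.2% of all tested genes. Only Stag2 passed the adjusted threshold.

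Smc1a, the SMC partner of Smc3, had 119.09 and 119.29 TPM in WT and 124.60 and 119.36 TPM in the knockout-labelled libraries (0.03, adjusted p = 0.536), and Stag1, the paralog of Stag2, had 27.45 and 26.78 TPM against 28.39 and 27.91 TPM (0.05, adjusted p = 0.407). Ctcf, which stops cohesin at loop anchors, changed by 0.05 (95% interval -0.06 to 0.16). All 3 of these small changes fell below 0 with spike-in scaling. Some regulators of the ring rose. Nipbl, the loader, went from 41.01 and 42.00 TPM to 45.49 and 46.35 TPM (0.14, adjusted p = 0.045), and Wapl, the release factor, from 62.30 and 63.08 TPM to 70.20 and 69.54 TPM (0.15, adjusted p = 0.026). Pds5a, which works with WAPL, went from 95.16 and 88.18 TPM to 108.32 and 108.91 TPM (0.24, adjusted p = 0.015), and its paralog Pds5b rose by 0.23 (adjusted p = 0.034). Other regulators did not pass: the loader partner Mau2 changed by -0.04, Cdca5 (sororin, which protects the ring from release) by -0.06, and the acetyltransferases Esco1 and Esco2 by -0.05 and 0.05. Hdac8 and Sgol1 changed by 0.28 and 0.20 and did not pass either (adjusted p = 0.068 and 0.072 by limma). Espl1 changed by 0.09 and Pttg1 by -0.02, and neither was called. With Stag2, 5 of 20 tested cohesin genes rose and 0 fell, with a median of 0.07, against 18.9% of all tested genes higher and 11.6% lower. Nipbl was called in 5 of the 19 alternatives, Wapl in 8, Pds5a in 13 and Pds5b in 9. The number of cohesin genes called higher was 1 without WT replicate 1 and 0 without either knockout-labelled replicate, under spike-in scaling or after removal of the GC and length trend.

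Phf6 had the largest change of the 10. It had 17.61 and 18.81 TPM in WT and 22.86 and 22.89 TPM in the knockout-labelled libraries, and it rose by 0.31 on the log2 scale (SE 0.053, 95% interval 0.18 to 0.45, adjusted p = 0.011 by limma). The change of Phf6 stood at the percentile 89.4 of all tested genes, against 82.4 for Stag2 and 73.1 for Bcor. Phf6 also passed under every scaling tried, with 0.23 (adjusted p = 0.028) under spike-in scaling and 0.21 (adjusted p = 0.020) after removal of the GC and length trend. Without knockout-labelled replicate 1 its change was 0.32 (adjusted p = 0.085) and without replicate 2 it was 0.31 (adjusted p = 0.082).

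Among the NuRD genes listed with Phf6, Chd3, a remodelling ATPase, had 41.96 and 42.17 TPM in WT and 57.77 and 59.00 TPM in the knockout-labelled libraries (0.46, adjusted p = 0.0012). Chd3 passed in 18 of the 19 alternatives and missed only where a change of at least 0.5 was asked for. Its paralog Chd4 changed by 0.04 (95% interval -0.03 to 0.12, adjusted p = 0.326) at 193.20 to 200.10 TPM. Mta1 rose by 0.34 (adjusted p = 0.0050) and Mta3 by 0.32 (adjusted p = 0.0048). Mbd2, which binds methylated DNA and belongs to an alternative form of NuRD, fell from 154.26 and 165.71 TPM to 143.52 and 139.66 TPM (-0.17, adjusted p = 0.037), and Mbd3, its counterpart in the other form, fell by 0.15 (adjusted p = 0.025). Mbd2 and Mbd3 were singled out after their values were seen, as the only NuRD genes called lower, and were called in 9 and 11 of the 19 alternatives. In this list 5 of 14 genes rose, Phf6 among them, and 2 fell, with a median of 0.08. These are 35.7% and 14.3%, against 18.9% and 11.6% of all tested genes, and the count was 4 higher and 2 lower with spike-in scaling. Without knockout-labelled replicate 1 the count was 2 higher and 0 lower, without replicate 2 it was 1 and 0, without WT replicate 1 it was 5 and 1, and without WT replicate 2 it was 5 and 0.

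**Figure D2:**
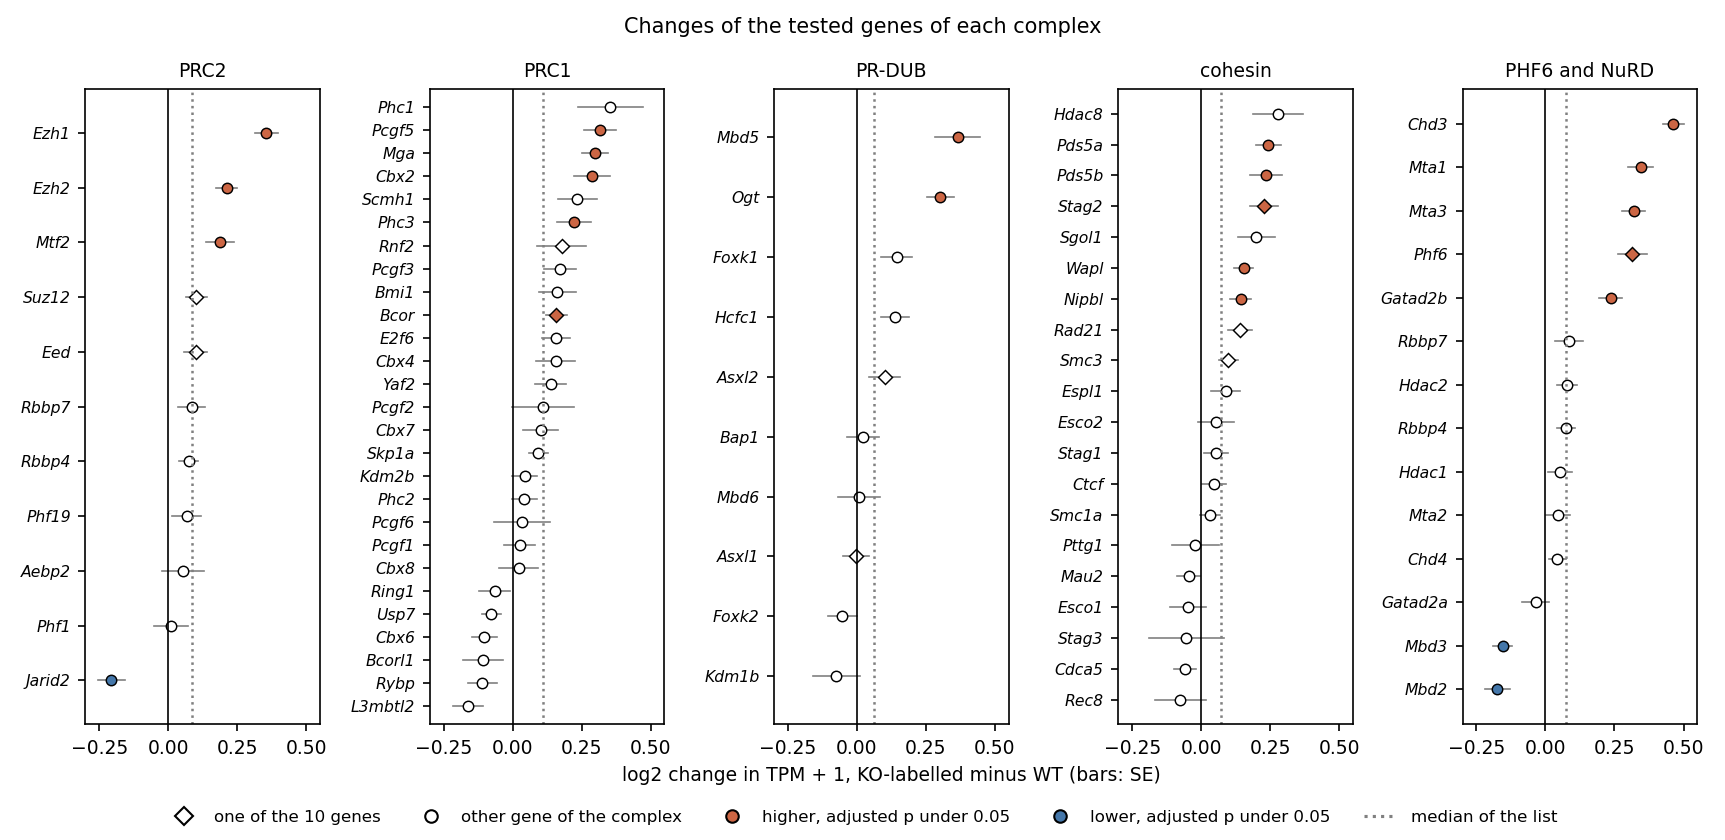
Log2 change in TPM + 1 (knockout-labelled minus WT, bars show the SE) of every tested gene in 5 lists, with the 10 genes as diamonds, orange for higher and blue for lower at an adjusted p under 0.05, and a dotted line at each list's median. Jarid2 in PRC2 and Mbd2 and Mbd3 in NuRD are the only genes in blue, and the list medians lie between 0.06 and 0.11.

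Leaving the 10 genes aside, 17 of 70 other tested genes of these complexes rose and 3 fell, which is 24.3% and 4.29% against 18.9% and 11.6% of all tested genes, and their median change was 0.07. Without knockout-labelled replicate 1 and without replicate 2 the count was 2 higher and 0 lower in each case, without WT replicate 1 it was 10 and 2, and without WT replicate 2 it was 15 and 0. The 20 genes of a proliferation list had a median of 0.01, with 3 higher and 1 lower, and summed to 3024 and 3023 TPM in WT and 3081 and 3100 TPM in the knockout-labelled libraries.

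The balance between paralogs depends little on a factor that scales a whole library. Removal of the GC and length trend works gene by gene, and the ratios were not recomputed there. In that setting Asxl1 changed by -0.017 and Asxl2 by -0.007, and Rnf2 by 0.10 and Ring1 by -0.03. Stag2 changed by 0.09 and Stag1 by -0.03, and Ezh2 by 0.20 and Ezh1 by 0.36. The log2 ratio of Stag2 to Stag1 was 1.17 and 1.33 in WT, as against 1.40 and 1.44 in the knockout-labelled libraries, a difference of 0.17 (pooled SD 0.081). Stag1 accordingly made up 30.3% and 28.1% of the summed STAG level in WT, as against 27.0% and 26.5% in the knockout-labelled libraries. The ratio of Ezh2 to Ezh1 went the other way, from 1.04 and 1.10 to 0.90 and 0.95 (difference -0.14, pooled SD 0.037), while the sum of both went from 83.2 and 84.4 TPM to 100.7 and 100.7 TPM. Asxl1 to Asxl2 gave 1.06 and 1.04 in WT, as against 1.02 and 0.88 in the knockout-labelled libraries (-0.10, pooled SD 0.07), and Rnf2 to Ring1 gave 0.63 and 0.90 against 1.08 and 0.94 (0.24, pooled SD 0.15). The groups did not overlap in any of these 4 ratios, and each had an exact two-sided permutation p of 0.33, the smallest that 2 against 2 libraries can give.

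**Figure D3:**
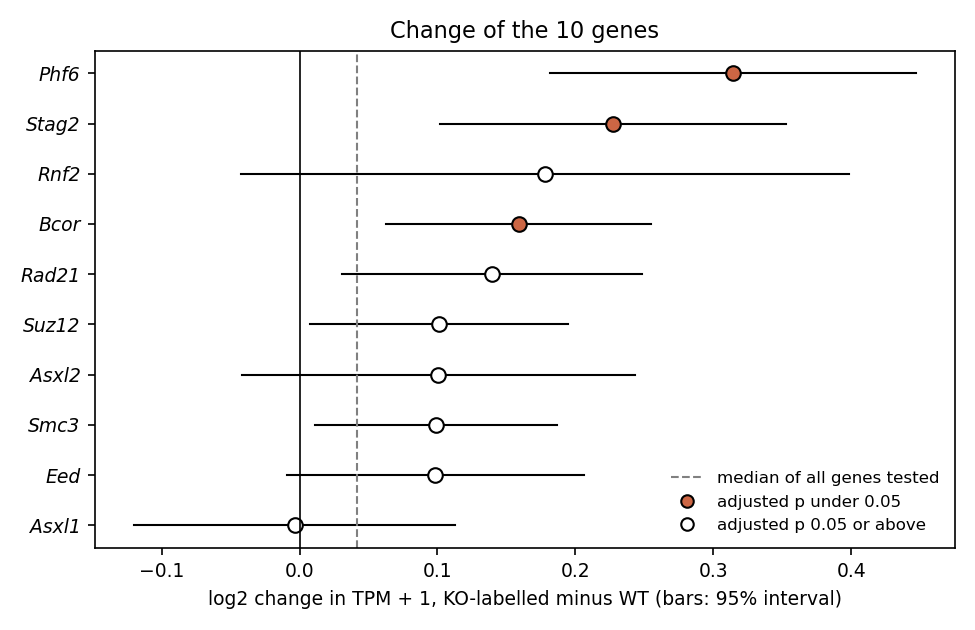
Log2 change in TPM + 1 of each of the 10 genes (knockout-labelled minus WT) with its 95% interval, filled where the adjusted p was under 0.05. Phf6, Stag2 and Bcor are filled, and the interval of Asxl1 is centred near 0.

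The 3 genes called higher, Phf6, Stag2 and Bcor, are the 3 of the 10 that lie on the X chromosome, a grouping that was noticed after the values were seen. In GENCODE M21 on GRCm38, Bcor spans chrX:12036740-12160355 (minus strand), Stag2 chrX:42149317-42277185 and Phf6 chrX:52912266-52956943 (both plus strand). Of the 349 other tested X-linked genes 25.2% were called higher and their median change was 0.10, while of 11143 autosomal genes 18.6% were higher with a median of 0.04. Xist, the RNA of the inactive X, had 55.48 and 69.23 TPM in WT and 82.64 and 84.38 TPM in the knockout-labelled libraries (0.42, adjusted p = 0.029 by limma). The Y-linked gene Uty had 6.91 and 7.39 TPM against 11.11 and 11.14 TPM (0.57, adjusted p = 0.0032), and Ddx3y, Eif2s3y and Kdm5d were also higher by 0.20 to 0.34. Xist, Ddx3y, Eif2s3y and Kdm5d did not pass when either knockout-labelled replicate was left out (Eif2s3y and Kdm5d also not without WT replicate 1), and Uty did. Transcripts of Xist and of Y-linked genes were thus present together in every library. The part of these levels in the changes of Phf6, Stag2 and Bcor was not tested.

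Change also moved with base composition across the table. Genes were split into 5 equal groups by transcript GC content. In the group with the lowest GC content (29.6% to 44.2%), 26.3% were called higher and the median change was 0.11. In the group with the highest GC content, 13.96% were higher and the median was -0.01. By transcript length the medians ran from 0.01 in the shortest of 5 groups to 0.09 in the longest. Stag2 (38.1% GC), Phf6 (39.1%), Rnf2 (39.5%), Suz12 (41.6%), Asxl2 (41.7%) and Smc3 (42.3%) all belonged to the lowest of these groups, with Rad21 at 44.3% just past it, Eed at 47.8%, Asxl1 at 51.7% and Bcor at 53.0%. With the trend on GC content and length removed, Stag2 changed by 0.09 (adjusted p = 0.097), Bcor by 0.15 (adjusted p = 0.029) and Phf6 by 0.21. In that setting 6 of the 10 genes had both knockout-labelled libraries above both WT libraries, in place of 9, against 42.1% of all genes in the same setting, and the median of the 10 was 0.10.

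**Figure D4:**
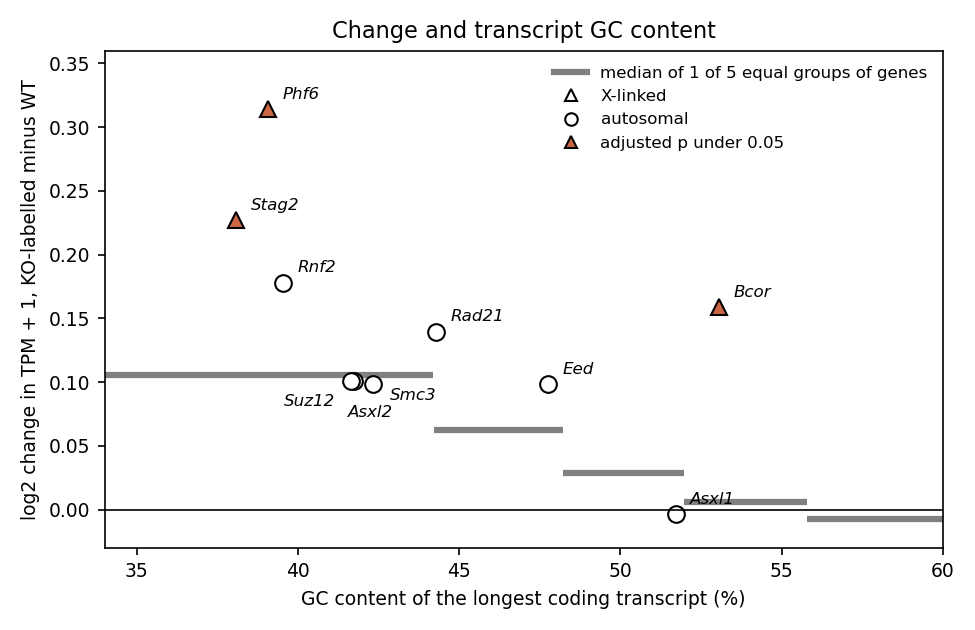
Log2 change in TPM + 1 of the 10 genes against the GC content of their longest coding transcript (percent), with triangles for X-linked genes, filled where the adjusted p was under 0.05. Grey bars show the median change of each of 5 equal groups of all annotated tested genes by GC content, drawn between 34% and 60%, and step down from 0.11 to -0.01.

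The number of genes that passed changed with the scaling. Of all genes called, 62.0% were higher in the values as deposited and 49.7% after trimmed-mean scaling. The share was 50.8% after rescaling without the granulocyte maturation list and 37.4% after scaling to the ERCC spike-ins. Spike-ins took 2.98% and 3.30% of WT libraries 1 and 2, and 3.41% and 3.39% of the knockout-labelled libraries. WT replicate 2 was thus closer to the knockout-labelled libraries in this share than to WT replicate 1. The median change of all tested genes went from 0.04 to -0.04 with spike-in scaling, and that of the 10 genes from 0.12 to 0.04. Under spike-in scaling 1 of the 10 was called higher (Phf6) and 3 had groups that did not overlap with the knockout-labelled libraries on top, against 26.4% of all genes. Of the 10, 9 changed by more than the median of all tested genes in the values as deposited and under each scaling to a total or to spike-ins, and 6 did so once the GC and length trend was removed. Rn45s, a ribosomal RNA precursor entry, took 5704 and 4350 TPM in WT and 14263 and 8813 TPM in the knockout-labelled libraries. Rescaling without Rn45s and the ERCC rows together gave a median of 0.13 for the 10 genes, and the part of Rn45s alone was not tested.

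**Figure D5:**
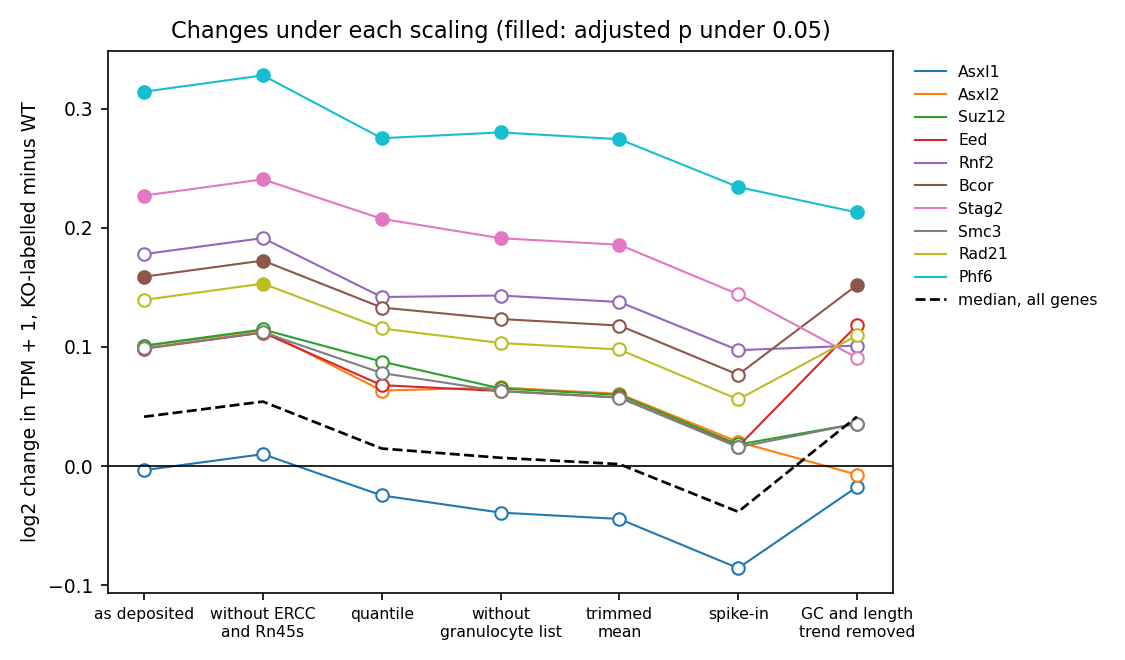
Log2 change in TPM + 1 of the 10 genes under each scaling, 1 line per gene, with the median of all tested genes dashed. Markers are filled where the adjusted p was under 0.05. Phf6 has the highest change of the 10 genes in each of these settings, and the median of all genes is lowest, -0.04, with spike-in scaling.

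The gene models limit some single values. Exons of another gene on the opposite strand overlap those of Asxl1, Asxl2, Suz12, Eed, Rnf2 and Stag2 over 28 to 261 bases, and whether strand was used in counting is not given in the sources used here. Bcor, Smc3, Rad21 and Phf6 have no such overlap. Of all stretches of 50 bases in their transcripts, 1.56% in Smc3 and 0.673% in Asxl2 also occur in transcripts of other genes, and none do in the other 8.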

How the data were processed

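RNA was measured by stranded mRNA sequencing in 4 libraries of mouse leukemic cells, 2 per genotype. The authors deposited 1 table of expression values for 24589 entries, read here as TPM from the equal column sums. STAR, RSEM and mm10 were used, per the submitters' processing notes, with no version named; which annotation and which strand option were used is not given in the sources used here. All 92 ERCC spike-in rows were left out of the tests, and 27 rows whose symbols had been turned into dates were kept as they were and matched to no list.

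From the TPM, log2(TPM + 1) was tested with limma 3.58.1 in R 4.3.3 (variance trend, two-sided, Benjamini-Hochberg over the 11837 genes that reached 1 TPM in 2 or more libraries), and genes were called at an adjusted p under 0.05. Fold changes on this scale understate those of low genes. The fit had 2 residual degrees of freedom and was tested on simulated data. Samples were grouped by their titles. An exact permutation test of 2 against 2 libraries cannot go below 0.33.

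The 10 genes, the gene lists and the tests were chosen with earlier results of these data known. Named besides the 10 were their listed paralogs and partners and up to 4 called genes per list with the smallest p. Outside this rule, Mau2, Cdca5, Esco1, Esco2, Hdac8, Sgol1, Espl1, Pttg1 and Chd4 were also named, none of them called. Mbd2, Mbd3, the tested Polycomb targets, sex-linked genes and single cell type markers fell outside it too. Epop and Ezhip, in the PRC2 list, were not analysed here. The lists counted were PRC2, PRC1, PR-DUB, cohesin, PHF6 and NuRD, Polycomb targets, proliferation, granulocyte maturation and cell type markers. In all, 19 alternatives were run, covering scaling, filter, pseudocount, variance model, thresholds, a replicate block and leaving out each library, and 1 more was added after the data were seen. Positions are from GENCODE M21 (GRCm38) and promoter sequences from RefSeq (GRCm38.p6). GC content and length were taken from annotation for 97.1% of tested genes.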

Additional observations from a re-analysis of the deposited data

How the results depend on the processing

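The precision is limited by 2 libraries per group and an unknown read depth. Each leave-out fit assumes that the lone library of a group varies like the other group. Quantile scaling, both pseudocounts, the filter at 5 TPM and robust variances kept every count over the 10 genes and over the other genes of their complexes within 1.5 times of the reported one.

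The replicate numbers were not shown to pair the libraries: deviations of same-numbered libraries from their group means correlated with r = -0.114, and the labels name no shared batch. With the numbers as a replicate block, 3071 genes were called, 2 of the 10 genes were higher, and of the other complex genes 13 were higher and 1 lower. With the pairing crossed, an alternative chosen after seeing the data, 3463 genes were called, 3 of the 10 were higher, and 16 and 3 of the others were higher and lower.

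Of the 10 genes, 3 were called higher as reported, 1 with spike-in scaling, 1 without the variance trend, 0 at an adjusted p under 0.01, 0 where a log2 change of at least 0.5 was asked for, and 0 to 3 when 1 library was left out. Of the other complex genes, 17 were higher as reported, 6 with spike-in scaling, 11 without a filter, 6 at an adjusted p under 0.01, 0 with the minimum change of 0.5, and 2 to 15 when 1 library was left out. Called lower were 3 as reported, 5 with trimmed-mean scaling, 1 without a filter, 0 without the variance trend, 0 at an adjusted p under 0.01, 0 with the minimum change, and 0 to 2 when 1 library was left out. Over all genes, 3606 were called as reported, 1505 at an adjusted p under 0.01, 915 with the minimum change and 1015 to 2905 when 1 library was left out.

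Small log2 changes turned sign. With quantile scaling these were Bap1 (-0.00484), Pcgf1 (-0.0155) and Cdkn2b (-0.0106). With trimmed-mean scaling they were Bap1 (-0.0187), Pcgf1 (-0.0140), Smc1a (-0.00875) and Cdkn2b (-0.00689). With spike-in scaling they were Bap1 (-0.0599), Pcgf1 (-0.0541), Kdm2b (-0.0374), Stag1 (-0.0289), Smc1a (-0.0506), Ctcf (-0.0354) and Cdkn2b (-0.0453). Rescaling without the granulocyte maturation list gave Bap1 -0.0133, Pcgf1 -0.00884, Smc1a -0.00332 and Cdkn2b -0.00184. Rescaling without ERCC rows and Rn45s gave Asxl1 0.00999, and removing the GC and length trend gave Asxl2 -0.00722 and Stag1 -0.0284. Leaving out 1 library gave ranges of -0.0406 to 0.0337 for Asxl1, -0.0477 to 0.0922 for Bap1, -0.0261 to 0.0777 for Pcgf1, -0.241 to 0.0795 for Cdkn2a and -0.0746 to 0.137 for Cdkn2b. None of these genes passed the test in the values as reported, and beyond the construction of each setting the cause was not tested.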

Other observations

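Some markers of other cell types were present. Of 5 B cell markers Cd79b alone reached 1 TPM, at 2.60 and 2.49 TPM in WT against 4.37 and 4.58 TPM in the knockout-labelled libraries (log2 change 0.63, adjusted p = 0.0064 by limma). Of 4 megakaryocyte markers 2 passed the filter. Pf4, a platelet chemokine, had 69.99 and 62.92 TPM in WT against 77.86 and 67.75 TPM, with overlapping groups (0.13, adjusted p = 0.289), and Itga2b, an integrin also present on early blood progenitors, had 20.01 and 20.56 TPM against 41.15 and 40.41 TPM (0.97, adjusted p = 0.000214). Of 5 stromal and endothelial markers, 4 were under 1 TPM in all libraries and were not tested. The remaining marker, Pdgfrb, had 5.92 and 5.93 TPM in WT against 8.65 and 8.72 TPM (0.48, adjusted p = 0.0054 by limma). Erythroid markers summed to 5.80 and 6.79 TPM in WT and 0.61 and 17.3 TPM in the knockout-labelled libraries, so the 2 knockout-labelled libraries lay on either side of WT. Among 10 myeloid blast markers 4 were higher (Ptprc, Cebpa, Mpo and Kit) and 4 lower (Spi1, Itgam, Csf2rb and Cd33), against 18.9% and 11.6% of all tested genes.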
